A study of Homo sapiens with 24 samples.

Results

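The genes described here are 10 amino acid transporters of the plasma membrane, SLC7A11, SLC7A5, SLC3A2, SLC7A1, SLC7A3, SLC1A4, SLC1A5, SLC38A1, SLC38A2 and SLC6A9, taken by symbol from a table of 60564 genes. RNA sequencing had been done on 24 libraries of cell lines derived from neuroblastoma, a childhood tumour of the sympathetic nervous system: SK-N-BE(2), known for its amplified MYCN gene, and SH-SY5Y, which lacks that amplification. Each line was given a lentiviral short hairpin RNA against NDUFS6, a lentivirus with the full NDUFS6 coding sequence, or the empty vector that belongs to each construct, and all cells were selected with puromycin. NDUFS6 is a subunit of complex I of the mitochondrial respiratory chain. The 8 groups are therefore, for each line, knockdown, knockdown control, overexpression and overexpression control, with 3 libraries each that the labels call biological replicates. The labels do not say whether the replicates came from separate transductions or from repeat cultures of 1 transduced population, nor how many hairpins were used, so the spread between libraries may not cover differences between transductions. Both lines were grown in minimum essential medium with serum, glutamate, pyruvate and added non-essential amino acids. No group without a virus is among these samples.

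Cells take up amino acids through carriers of several families. SLC3A2 is a single-pass heavy chain that brings a light chain of the SLC7 family to the surface: with SLC7A11 it forms system xc-, which imports cystine in exchange for glutamate and so feeds glutathione synthesis, and with SLC7A5 it forms LAT1, which imports leucine and other large neutral amino acids in exchange for glutamine. SLC7A1 and SLC7A3 carry arginine and lysine without a heavy chain, SLC1A4 (ASCT1) and SLC1A5 (ASCT2) exchange serine, alanine and glutamine, SLC38A1 (SNAT1) and SLC38A2 (SNAT2) import glutamine and alanine with sodium, and SLC6A9 (GlyT1) imports glycine. Many of these genes are textbook targets of ATF4, a transcription factor made when amino acids run short or when the endoplasmic reticulum or mitochondria are under stress, and SLC7A11 is also a target of NRF2, the product of NFE2L2.

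The promoters are shown because the tested members rose together in SK-N-BE(2) and split in SH-SY5Y, and because the factors named above bind short motifs near the starts of genes. RefSeq starts in GRCh38.p14 gave 14 promoter entries, each from 250 bases before to 50 bases after a start, for 8 of the 10 genes. SLC7A11 and SLC7A3 had no entry. The letters TGATGNAA, the composite element bound by ATF4 with C/EBP partners, were searched on both strands and were found in 5 of the 14 entries, 1 each of SLC3A2, SLC7A1, SLC1A4, SLC1A5 and SLC38A1, against 3.62% of 35116 promoters of the same length. Matches stand in capitals in these 5 sequences, which run 5′ to 3′ along the gene. The match lies 37 bases after the start of the entry in SLC3A2, 7 bases after it in SLC7A1, 7 bases before it in SLC1A4, 97 bases before it in SLC1A5 and 4 bases before it in SLC38A1. SLC3A2 and SLC1A5 had 3 entries each and SLC1A4 and SLC38A1 had 2 each, and their other entries held no match. The SLC1A5 entry with the match lies inside the gene, and the entry at its 5′ end (chr19:46788545-46788844) held none. In SLC3A2 (TTACATCA) and SLC1A4 (TTGCATCA) it is on the other strand.
SLC3A2, chr11:62881449-62881748, plus strand: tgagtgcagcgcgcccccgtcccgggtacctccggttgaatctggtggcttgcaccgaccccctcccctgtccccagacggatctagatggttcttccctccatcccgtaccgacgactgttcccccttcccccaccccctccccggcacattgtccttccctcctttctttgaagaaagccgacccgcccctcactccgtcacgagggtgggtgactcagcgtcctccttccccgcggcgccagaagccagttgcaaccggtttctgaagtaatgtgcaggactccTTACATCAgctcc
SLC7A1, chr13:29595639-29595938, minus strand: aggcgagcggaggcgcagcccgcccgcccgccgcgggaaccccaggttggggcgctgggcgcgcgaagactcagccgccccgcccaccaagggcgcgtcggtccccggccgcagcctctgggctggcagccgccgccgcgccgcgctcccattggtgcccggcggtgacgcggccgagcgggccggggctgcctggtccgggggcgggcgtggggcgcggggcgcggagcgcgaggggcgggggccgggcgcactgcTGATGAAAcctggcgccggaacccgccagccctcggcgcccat
SLC1A4, chr2:64989149-64989448, plus strand: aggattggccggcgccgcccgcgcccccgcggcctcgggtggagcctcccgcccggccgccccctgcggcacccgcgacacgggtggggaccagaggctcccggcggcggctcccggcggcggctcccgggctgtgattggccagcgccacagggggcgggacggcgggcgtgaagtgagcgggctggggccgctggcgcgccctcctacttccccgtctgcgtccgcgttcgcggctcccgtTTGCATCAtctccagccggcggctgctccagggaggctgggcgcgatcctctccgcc
SLC1A5, chr19:46784765-46785064, minus strand: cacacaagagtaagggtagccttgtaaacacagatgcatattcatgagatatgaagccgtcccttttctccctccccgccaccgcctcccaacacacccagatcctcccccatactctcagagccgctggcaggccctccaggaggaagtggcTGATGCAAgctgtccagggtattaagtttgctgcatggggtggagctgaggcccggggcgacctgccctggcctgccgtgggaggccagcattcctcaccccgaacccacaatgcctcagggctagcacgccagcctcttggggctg
SLC38A1, chr12:46266467-46266766, minus strand: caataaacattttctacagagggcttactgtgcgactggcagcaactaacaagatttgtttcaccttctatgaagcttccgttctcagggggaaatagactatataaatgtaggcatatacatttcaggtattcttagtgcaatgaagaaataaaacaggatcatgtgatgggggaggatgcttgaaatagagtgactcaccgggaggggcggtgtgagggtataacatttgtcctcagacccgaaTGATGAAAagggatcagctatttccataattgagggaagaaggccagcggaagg

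The entries of SLC7A5, SLC38A2 and SLC6A9 did not hold these letters. SLC7A5, whose entry lies at chr16:87869458-87869757 on the minus strand, held CACGTG, the E-box bound by MYC family proteins, 130 bases before its start, and CACGTG was otherwise found in 1 entry of SLC1A5 and in 7.26% of all promoters. The letters TGACNNNGC, the antioxidant response element bound by NRF2, were found in entries of SLC7A5, SLC3A2, SLC7A1 and SLC1A5 and in 13.3% of all promoters. None of the matches overlapped another. A match describes these letters in this window and is not a measured binding site.

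The deposited values are FPKM, read fragments per length of transcript and per library total, which allow levels to be compared between genes. Between 12607 and 14018 genes reached 1 FPKM in a library. Depth is unknown, since no counts were used. Changes are differences of log2(FPKM + 1) between groups in limma, fitted over 15903 genes that reached 1 FPKM in at least 3 libraries, and p-values are adjusted over these genes by the Benjamini-Hochberg method with a threshold of 0.05. A fold is a ratio of mean FPKM. NDUFS6 followed the labels: its log2 change was -2.38 and -1.33 in the knockdowns of SK-N-BE(2) and SH-SY5Y, and 0.39 and 4.13 in the overexpressions. NDUFS6 FPKM in the SK-N-BE(2) overexpression was 14.9, 17.8 and 19 against 11.8, 13.9 and 12.7, a far smaller change than in SH-SY5Y, where it was 199 to 214. Of the 7 neuroblastoma markers examined, among them HAND2, none was listed at 0 throughout a control group.

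In cells with an empty vector, SLC38A2 was the most abundant of the 10 transcripts, with group means from 37.3 to 49 FPKM in the 4 control groups. SLC38A1 followed, with group means from 20.8 to 41.8 FPKM, and SLC1A5 held 18.8 to 22.7. SLC7A5 held 20.6 and 23.4 FPKM in the SK-N-BE(2) control groups, near SLC1A5, but 7.44 and 6.19 in those of SH-SY5Y, below SLC7A1. SLC7A1 (10.1 to 17.1) and SLC3A2 (5.97 to 13.4) were intermediate, and SLC1A4 (2.01 to 2.5) was low. SLC7A11 held 2.16 and 3.75 FPKM in the SK-N-BE(2) control groups, but 0.251 and 0.11 in those of SH-SY5Y. Neighbours in this order overlapped in some groups: SLC3A2 and SLC7A1, and SLC7A11 and SLC1A4, in the SK-N-BE(2) knockdown controls, and SLC7A5 and SLC3A2 in both control groups of SH-SY5Y. SLC6A9 stayed under 1 FPKM in all controls, and SLC7A3 was listed at 0 in all 6 SK-N-BE(2) controls.

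The lines differed in this baseline. Over all controls, 6 of the 9 tested members were higher and 1 was lower in SK-N-BE(2) than in SH-SY5Y, where 33.5% and 43.8% of all tested genes were. SLC7A11 was 16.3-fold higher (log2 change 1.72, SE 0.0996, adjusted p = 2.52e-12), SLC7A5 3.23-fold higher and SLC3A2 1.95-fold higher, so the partners of system xc- and LAT1 stood above SH-SY5Y together. SLC7A1 was 1.56-fold lower (log2 change -0.60). The log2 differences of SLC1A4, -0.02 with a 95% interval from -0.14 to 0.10, and of SLC38A2, 0.06 with an interval from -0.03 to 0.14, did not pass the test.

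**Figure D1:**
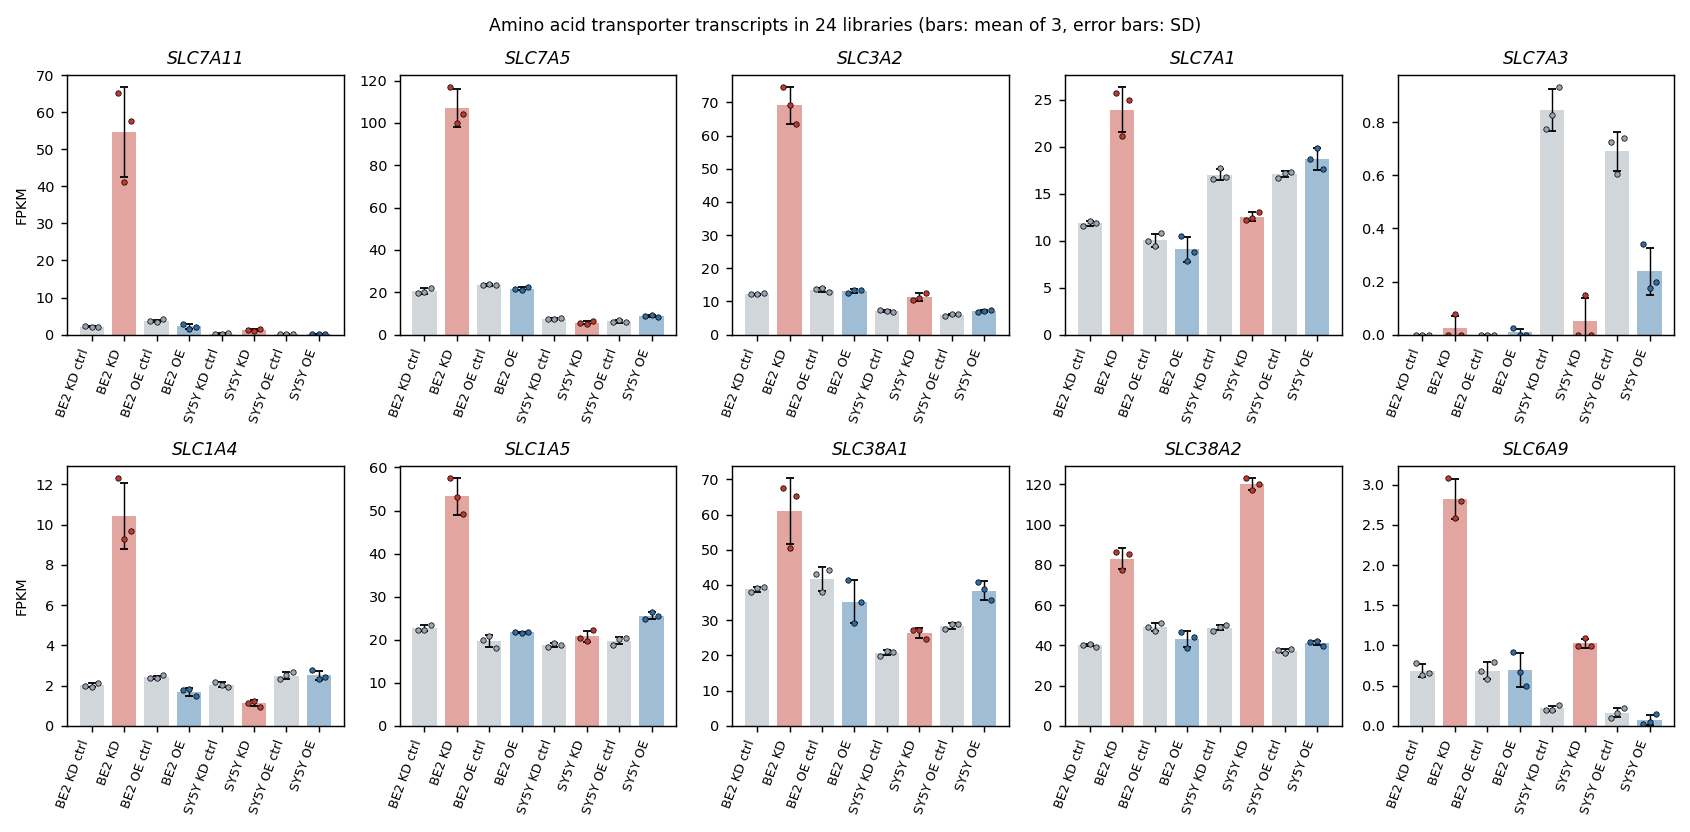
FPKM of each of the 10 transporters (1 panel each, linear axis from 0) in the 24 libraries, with points for libraries, bars for the mean of 3 and error bars for the SD; BE2 is SK-N-BE(2), SY5Y is SH-SY5Y, KD is NDUFS6 knockdown, OE is NDUFS6 overexpression and ctrl is the empty vector of that construct. The SK-N-BE(2) knockdown libraries are the highest of all 24 for 8 genes, whereas for SLC38A2 the SH-SY5Y knockdown libraries are higher, and SLC7A3 is under 1 FPKM throughout.

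With NDUFS6 knocked down in SK-N-BE(2), transcripts of all 9 tested transporters rose, and their control and knockdown libraries did not overlap for any of them. Of all tested genes, 27.4% rose and 28.3% fell in this comparison, and 30.3% were higher without overlap. The median log2 change of the 9 members was 1.19, beside -0.01 over all tested genes, and 7 of the 9 members rose with a log2 change of at least 1 (2-fold), as 3.19% of all tested genes did. Summed FPKM of the 10 genes was 151 ± 2 (SD, n = 3) in the controls and 466 ± 42.1 (SD, n = 3) in the knockdown. SLC6A9 passed the filter only through knockdown libraries and so had to differ, and SLC7A3 was not tested. In bulk RNA, a change per cell and a change in the mix of cells cannot be told apart. Of the 7 neuroblastoma markers 6 fell and 1, TH, rose in this knockdown, their summed level was 539 to 550 FPKM in the controls and 255 to 330 in the knockdown, and none was listed at 0 throughout a group. Their part in the result was not tested.

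In SH-SY5Y the knockdown split the same transporters. Of the 9 tested members, 6 rose and 3 fell, beside 26.3% and 29.6% of all tested genes. SLC38A2, SLC7A11, SLC6A9, SLC3A2, SLC38A1 and SLC1A5 rose, and SLC1A4, SLC7A1 and SLC7A5 fell. All 9 stood apart from their controls without overlap, as 30.5% of all tested genes did upward and 34% downward. The median log2 change of the 9 members was 0.33, beside -0.01 over all tested genes. Across all tested genes, 9.97% rose in both lines and 7.65% rose in SK-N-BE(2) while they fell in SH-SY5Y. Among the 5 members with the composite motif, SLC3A2, SLC38A1 and SLC1A5 rose, and SLC7A1 and SLC1A4 fell. Summed FPKM of the 10 genes was 123 ± 2.89 (SD, n = 3) in the controls and 200 ± 3.79 (SD, n = 3) in the knockdown. The call of SLC7A5 did not hold against the other empty vector control, and those of SLC38A1 and SLC1A5 did not hold against it or with another scaling, as given with each gene. All 5 fibroblast markers rose in the SH-SY5Y knockdown, among them DCN, LUM, COL3A1 and COL1A1. Their summed level was 98.3 to 102 FPKM in the controls and 224 to 236 in the knockdown, and 28.9 to 31.1 in the other empty vector control of the line. Of the 4 immune markers, CD68 went from 1.89 to 10.1 FPKM, PTPRC, which defines blood cells, stayed at 0.0643 or below in these groups' means, and CD3E was listed at 0. CD14, like PTPRC and CD3E, did not pass the filter, and the highest value of these 3 in any of the 24 libraries was 0.786 FPKM. The 7 neuroblastoma markers summed to 738 to 745 FPKM in the controls and 591 to 611 in the knockdown, with 3 higher and 3 lower and TH, the enzyme that begins catecholamine synthesis, at 0.2 FPKM in the controls and listed at 0 in the knockdown. The part of these lists in the transporter results was not tested.

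**Figure D2:**
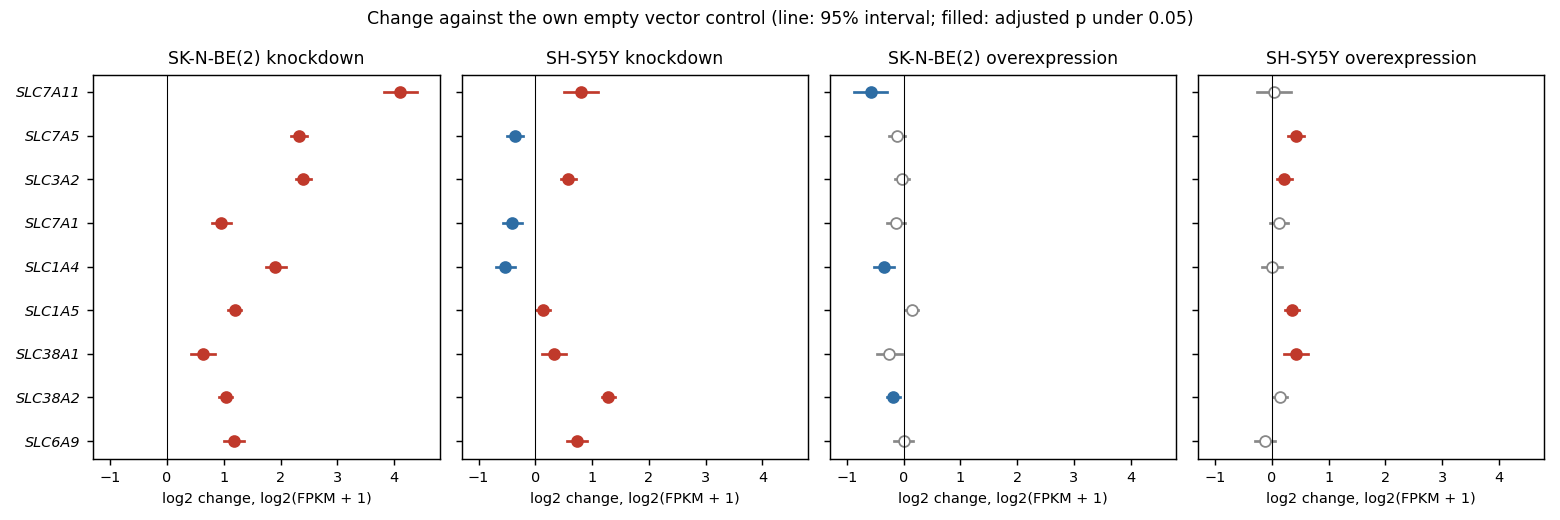
Log2 change (difference of log2(FPKM + 1)) of the 9 tested transporters against the empty vector control of each construct, in 4 panels, 1 for each line and construct; lines are 95% intervals from limma over n = 3 libraries a group, red and blue filled points are higher and lower with adjusted p under 0.05, and open grey points did not pass. All 9 points lie right of 0 in the SK-N-BE(2) knockdown, with SLC7A11 farthest at 4.11, and 3 lie left of 0 in the SH-SY5Y knockdown.

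SLC7A11, the light chain of the cystine and glutamate exchanger, changed most among the members in SK-N-BE(2). Its FPKM was 2.24, 2.09 and 2.15 in the controls and 65.1, 41.3 and 57.6 in the knockdown. The lowest knockdown library was far above every control, and the knockdown libraries spread over a wide range. The mean was 25.3-fold higher (log2 change 4.11, SE 0.141, adjusted p = 5.59e-15 by limma), the change ranked 6 from the top among 15903 genes, and against the other empty vector control it was 3.53. In SH-SY5Y, SLC7A11 held 0.188, 0.276 and 0.289 FPKM in the controls and 1.11, 0.881 and 1.61 in the knockdown. These groups did not overlap either, at a level below that of the SK-N-BE(2) controls (log2 change 0.80, SE 0.141, adjusted p = 6.12e-05). The fold in mean FPKM was 4.78, and the log2 change was 1.86 with a pseudocount of 0.1, because a pseudocount of 1 shrinks changes at such low levels. The exons of SLC7A11, on chromosome 4 (138164097 to 138242349, hg38, minus strand), share 865 bases with SLC7A11-AS1 on the opposite strand. SLC7A11-AS1 itself held 0 to 1.61 FPKM over the 24 libraries, and the sources used here do not say whether counting used strand.

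SLC7A5, the LAT1 light chain, showed opposite directions in the lines. In SK-N-BE(2) it went from 19.6, 20.3 and 22 FPKM in the controls to 117, 100 and 104 in the knockdown, 5.19-fold higher (log2 change 2.32, SE 0.0666, adjusted p = 5.36e-16). It became the most abundant of the 10 transcripts there, the only group in which SLC38A2 was not first. In SH-SY5Y it went from 7.12, 7.42 and 7.77 to 5.55, 5.12 and 6.22, and the groups did not overlap (log2 change -0.35, SE 0.0666, adjusted p = 0.000145). That fall did not pass the test against the other empty vector control of the line (log2 change -0.12, adjusted p = 0.143). SLC7A5 lies on chromosome 16 (87830023 to 87869488, minus strand), and its pseudogenes SLC7A5P1, at 0.185 to 1.97 FPKM, and SLC7A5P2, at 0.0118 to 0.203 FPKM, may share some of its reads.

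SLC3A2, the heavy chain of both exchangers, rose in both lines. In SK-N-BE(2) it held 12.1, 12.1 and 12.4 FPKM in the controls and 74.6, 69.2 and 63.5 in the knockdown, 5.65-fold higher (log2 change 2.40, SE 0.0618, adjusted p = 9.38e-17). In SH-SY5Y it held 7.37, 7.25 and 6.91 in the controls and 10.3, 10.9 and 12.6 in the knockdown, 1.57-fold higher (log2 change 0.58, SE 0.0618, adjusted p = 1.01e-07). No knockdown library overlapped a control in either line. SLC3A2 lies on chromosome 11 (62856102 to 62888875, plus strand).

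The heavy chain and its light chains can be set side by side, since FPKM is per length. The FPKM of the 6 light chains that pair with SLC3A2 (SLC7A5, SLC7A6, SLC7A7, SLC7A8, SLC7A10 and SLC7A11) were summed and divided by that of SLC3A2. In SK-N-BE(2) this ratio was 2.44, 2.53 and 2.54 in the knockdown controls and 2.56, 2.19 and 2.71 in the knockdown, so that the groups overlapped while summed light chains went from 30.6 ± 1.1 to 171 ± 20 FPKM (SD, n = 3). In SH-SY5Y the ratio was 1.6, 1.87 and 1.88 in the controls and 1.33, 1.22 and 1.19 in the knockdown, without overlap, while summed light chains were 12.8 ± 0.917 and 13.9 ± 0.85 FPKM (SD, n = 3). The makeup of the light chains differed as well. SLC7A11 made up 7.06 ± 0.445% of light chain FPKM in the SK-N-BE(2) knockdown controls and 31.6 ± 3.76% in the knockdown (SD, n = 3), whereas the share of SLC7A5 was 67.4% and 62.6% and that of SLC7A6, a light chain for arginine and leucine exchange, 24.6% and 5.56%. SLC7A6 itself rose there, from 7.52 to 9.42 FPKM (log2 change 0.29, adjusted p = 0.00883), so its smaller share goes with the larger rises of SLC7A5 and SLC7A11. In SH-SY5Y the share of SLC7A11 was 1.95 ± 0.327% and 8.53 ± 2.12% (SD, n = 3), and SLC7A6, at 37.7% and 46.9%, became the largest share in the knockdown as SLC7A5 went from 58.3% to 40.3%. The other empty vector control of SH-SY5Y had an SLC7A6 share of 46.1%, near that of the knockdown, and an SLC7A5 share of 52.3%. These ratios describe transcripts and were not tested.

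**Figure D3:**
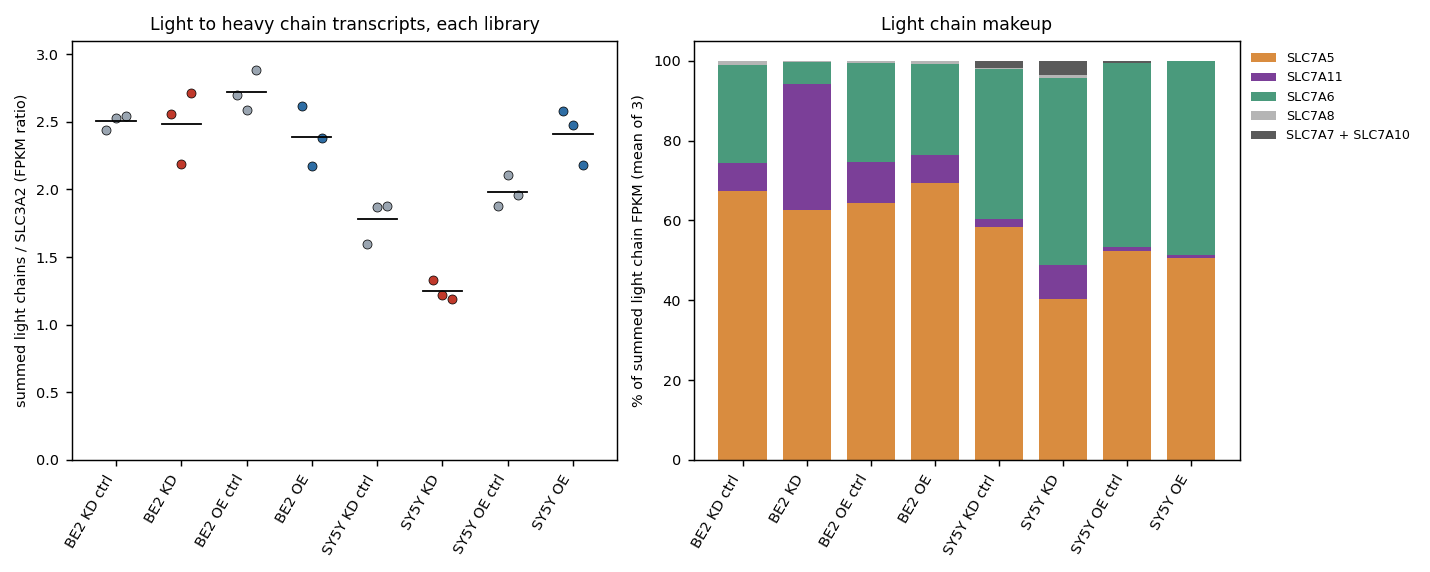
Left, summed FPKM of 6 SLC3A2 light chains divided by SLC3A2 FPKM, with a point for each library and a line at the mean of 3; right, the mean percent of light chain FPKM from each light chain, stacked to 100, over 3 libraries a group, with groups named as in the plot of FPKM by library. The ratio is near 2.5 in SK-N-BE(2) with and without knockdown and lower in the SH-SY5Y knockdown (1.19 to 1.33), and the SLC7A11 share is largest in the SK-N-BE(2) knockdown at 31.6%.

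The arginine and lysine carriers SLC7A1 and SLC7A3 both stood lower in the SH-SY5Y knockdown, whereas in SK-N-BE(2) SLC7A3 was too near 0 to compare. SLC7A1 (chromosome 13, 29509410 to 29595688, minus strand) went from 11.6, 12.1 and 11.9 FPKM to 25.7, 21.2 and 25 in the SK-N-BE(2) knockdown, 2.02-fold higher (log2 change 0.95, SE 0.0779, adjusted p = 2.48e-09). In SH-SY5Y it went from 16.6, 17.7 and 16.8 to 12.2, 12.4 and 13.1, 1.35-fold lower (log2 change -0.41, SE 0.0779, adjusted p = 0.000154), and the change was -0.41 against the other control as well. The groups did not overlap in either line. SLC7A3 (chromosome X, 70925582 to 70931125, minus strand) never reached 1 FPKM and was listed at 0 in 12 of 24 libraries. It held 0.776, 0.829 and 0.932 FPKM in the SH-SY5Y knockdown controls, whereas 2 of the 3 knockdown libraries were listed at 0 and the other held 0.15. It also stood lower in the SH-SY5Y overexpression, at 0.341, 0.176 and 0.197 against 0.725, 0.604 and 0.742 in its controls. In SK-N-BE(2) it was above 0 in 2 of 12 libraries, 1 of them a knockdown library at 0.0767 FPKM.

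The alanine, serine and cysteine carriers SLC1A4 and SLC1A5 differed in SH-SY5Y. SLC1A4 (chromosome 2, 64988477 to 65023865, plus strand) went from 2, 1.92 and 2.12 FPKM to 12.3, 9.28 and 9.67 in the SK-N-BE(2) knockdown, 5.17-fold higher (log2 change 1.91, SE 0.0829, adjusted p = 1.77e-13). In SH-SY5Y it went from 2.16, 2.05 and 1.91 to 1.13, 1.25 and 0.955, 1.84-fold lower (log2 change -0.53, SE 0.0829, adjusted p = 1.68e-05). Starting from similar control levels, the transcript thus moved in opposite directions in the lines. SLC1A5 (chromosome 19, 46774883 to 46788594, minus strand), the glutamine exchanger, rose 2.35-fold in SK-N-BE(2), from 22.2, 22.3 and 23.5 to 57.5, 53.2 and 49.1 (log2 change 1.19, SE 0.0572, adjusted p = 7.79e-13). In SH-SY5Y it held 18.3, 19.3 and 18.8 in the controls and 20.4, 19.8 and 22.3 in the knockdown, a log2 change of 0.14 with an adjusted p of 0.0489 that missed the threshold against the other control (0.07, adjusted p = 0.308). With FPKM scaled to a fixed sum per library it was 0.04 (adjusted p = 0.559), and the adjusted p was 0.0935 with no filter and 0.0606 without trend and robust moderation. It missed the threshold as well without any of knockdown control replicates 1 to 3 or knockdown replicates 1 and 3, and without knockdown replicate 3 the change was 0.09. Its exons share 780 bases with the antisense gene AC008622.2.

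The sodium-coupled carriers SLC38A1 and SLC38A2 are neighbours on chromosome 12 (46183063 to 46270017 and 46358189 to 46372867, both on the minus strand). SLC38A2 rose in both lines and was the member with the highest level in SH-SY5Y. It went from 40.3, 40.8 and 39.4 FPKM to 86.4, 77.3 and 85.6 in SK-N-BE(2), 2.07-fold higher (log2 change 1.03, SE 0.056, adjusted p = 5.33e-12), and from 47.3, 49 and 50 to 123, 117 and 120 in SH-SY5Y, 2.46-fold higher (log2 change 1.28, SE 0.056, adjusted p = 1.25e-13). All knockdown libraries lay above all controls. Against the other control, the change was 0.75 in SK-N-BE(2) and 1.66 in SH-SY5Y. SLC38A1 rose less, from 37.9, 39.1 and 39.3 to 67.4, 50.4 and 65.3 in SK-N-BE(2) (1.57-fold, log2 change 0.63, SE 0.103, adjusted p = 2.83e-05). In SH-SY5Y it held 19.9, 21.3 and 21.1 in the controls and 27.1, 27.3 and 24.6 in the knockdown (log2 change 0.33, adjusted p = 0.0104), but the other SH-SY5Y control held 27.4, 28.8 and 28.9. Against that control its log2 change was -0.10 (adjusted p = 0.411), and with FPKM scaled to a fixed sum per library it was 0.23 (adjusted p = 0.0996).

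SLC6A9, the glycine transporter (chromosome 1, 43991500 to 44031467, minus strand), was low but higher in both knockdowns. It held 0.777, 0.631 and 0.654 FPKM in the SK-N-BE(2) controls and 3.08, 2.58 and 2.8 in the knockdown, 4.1-fold higher (log2 change 1.18, SE 0.0821, adjusted p = 2.35e-10). In SH-SY5Y it held 0.201, 0.197 and 0.254 in the controls and 0.996, 1.09 and 0.998 in the knockdown, 4.73-fold higher (log2 change 0.74, SE 0.0821, adjusted p = 1.88e-07). Only 4 of the 24 libraries reached 1 FPKM, all of them knockdown libraries, so these calls say less than those of the other members. With a pseudocount of 0.1 the changes were 1.89 and 1.83. Its exons share 404 bases with CCDC24 on the opposite strand.

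To compare the lines, the SH-SY5Y knockdown change was subtracted from the SK-N-BE(2) one. By adjusted p under 0.05, this difference was called above 0 for 7 and below 0 for 1 of the 9 tested members. Of all tested genes, 29.5% and 26.3% were called above and below 0. On the log2(FPKM + 1) scale SLC7A11 differed most, by 3.31 (SE 0.199, adjusted p = 2.5e-11), followed by SLC7A5 with 2.67 (SE 0.0942), SLC1A4 with 2.44 (SE 0.117) and SLC3A2 with 1.83 (SE 0.0873). SLC7A1 and SLC1A5 differed by 1.36 and 1.06. This order depends on the scale, since a pseudocount of 1 shrinks the SH-SY5Y change of SLC7A11 (0.80, but 1.86 with a pseudocount of 0.1). Folds in mean FPKM in SK-N-BE(2) and SH-SY5Y were 25.3 and 4.78 for SLC7A11, but 5.17 and 0.545 for SLC1A4. SLC38A2 was the member with a larger change in SH-SY5Y, a difference of -0.25 (SE 0.0792, adjusted p = 0.0102) that was -0.05 (adjusted p = 0.656) when FPKM was scaled to a fixed sum per library. With the other control in both lines it was -0.91 (adjusted p = 5.38e-09). The difference of SLC38A1, 0.30 with a 95% interval from 0 to 0.61, did not pass the test (adjusted p = 0.0831), but it was 0.43 (adjusted p = 0.00797) without SK-N-BE(2) knockdown replicate 2 and 0.63 (adjusted p = 0.00101) with the other control in both lines. That of SLC6A9 was 0.44 (adjusted p = 0.00308), but 0.06 (adjusted p = 0.898) with a pseudocount of 0.1, and its fold in mean FPKM was larger in SH-SY5Y (4.73) than in SK-N-BE(2) (4.1). NDUFS6 itself also fell further in SK-N-BE(2), by 1.05 on the log2 scale (SE 0.167, adjusted p = 2.11e-05), and the part of this deeper knockdown in the transporter differences was not tested.

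NDUFS6 overexpression moved the transporters far less. In SK-N-BE(2), none of the 9 tested members rose and 3 fell, beside 12.9% and 16.8% of all tested genes. With an unadjusted p under 0.05 in limma, 1 of the 9 was higher (SLC1A5) and 4 were lower. SLC7A11 held 3.71, 3.47 and 4.08 FPKM in the controls and 2.93, 1.62 and 2.08 in the overexpression, without overlap (log2 change -0.58, SE 0.141, adjusted p = 0.00447). SLC1A4 held 2.36, 2.38 and 2.51 in the controls and 1.78, 1.84 and 1.46 in the overexpression (log2 change -0.35, SE 0.0829, adjusted p = 0.00436). SLC38A2 held 49, 46.9 and 51.2 in the controls and 46.6, 38.5 and 44.2 in the overexpression (log2 change -0.18, SE 0.056, adjusted p = 0.0182). The libraries of these 3 genes did not overlap, as for 18.1% of all tested genes downward. None of these 3 calls passed against the other control of the line, where the log2 changes were 0.00, -0.16 and 0.10, or when only these 2 groups were fitted, where the adjusted p was 0.0696, 0.0545 and 0.189. SLC7A1, which did not pass against its own control (log2 change -0.14, adjusted p = 0.188), was lower against the other one (-0.36, adjusted p = 0.0011). The call of SLC38A2 was also lost without overexpression replicate 2 or overexpression control replicate 3, and without overexpression replicate 1 there were 5 lower members.

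In SH-SY5Y, overexpression raised 4 of the 9 tested members and lowered none, beside 15.4% and 17.2% of all tested genes. With an unadjusted p under 0.05 in limma, 5 of the 9 were higher and 0 were lower. SLC7A5 went from 5.84, 6.88 and 5.85 FPKM to 8.56, 9.09 and 8.24 (log2 change 0.42, SE 0.0666, adjusted p = 6.08e-05). SLC1A5 went from 18.8, 20.2 and 20.3 to 24.7, 26.5 and 25.6 (log2 change 0.36, SE 0.0572, adjusted p = 7.42e-05). SLC38A1 went from 27.4, 28.8 and 28.9 to 40.7, 38.9 and 35.6 (log2 change 0.42, SE 0.103, adjusted p = 0.00335), and SLC3A2 from 5.74, 6.07 and 6.09 to 6.89, 7.03 and 7.42 (log2 change 0.22, SE 0.0618, adjusted p = 0.00973). All 4 genes were higher without overlap, as 23% of all tested genes were. Against the other control of the line, the changes of SLC7A5, SLC1A5 and SLC38A1 were 0.19, 0.42 and 0.85 and passed the test, whereas that of SLC3A2 was -0.01 (adjusted p = 0.895). SLC1A4, with a log2 change of 0.00 against its own control, was higher against the other one (0.21, adjusted p = 0.0407). SLC38A2 held 37.8, 36 and 38 FPKM in its controls and 41.8, 42 and 39.9 in the overexpression and did not pass (log2 change 0.14, adjusted p = 0.059), but was -0.24 (adjusted p = 0.00122) against the other control. The SK-N-BE(2) minus SH-SY5Y difference in the overexpression change was called below 0 for 7 members and above 0 for none. With an unadjusted p under 0.05 in limma, these counts were 8 and 0. Of all tested genes, 18.5% and 18.3% were called below and above 0. SLC38A1 was at -0.67 (SE 0.145, adjusted p = 0.00124). The differences of SLC7A1 (-0.27) and SLC6A9 (0.12) did not pass. Of these 7 calls, those of SLC38A1, SLC7A5 and SLC38A2 held whichever library was left out. SLC7A11 was lost without SK-N-BE(2) overexpression replicate 2 (-0.48, adjusted p = 0.0622), and SLC1A4, SLC3A2 and SLC1A5 without any of several libraries, with adjusted p up to 0.0756, 0.0733 and 0.105. With the other empty vector control in both lines, an alternative chosen after seeing the data, the difference of SLC38A2 turned from -0.33 to 0.33 (adjusted p = 0.00146), those of SLC7A11 and SLC3A2 were 0.14 and 0.10 (adjusted p = 0.59 and 0.339) and that of SLC7A5 was -0.12 (adjusted p = 0.28). Those of SLC38A1, SLC1A5 (-0.48) and SLC1A4 (-0.37) stayed below 0 and passed, and SLC7A1 passed at -0.49 (adjusted p = 0.000909). With that control 4 members were thus called below 0 and 1 above 0. The amounts of NDUFS6 reached in the lines differ widely, and their part in this difference was not tested.

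For some of these genes a line's 2 empty vectors were themselves apart. The knockdown control minus the overexpression control of SK-N-BE(2) gave lower SLC7A11 (log2 difference -0.59, adjusted p = 0.00277), SLC38A2 (-0.28) and SLC7A5 (-0.18) and higher SLC7A1 (0.22) and SLC1A5 (0.20), 3 and 2 of 9 members beside 19% and 15.5% of all tested genes. The calls of SLC7A1, SLC1A5 and SLC7A5 were lost when single libraries were left out (adjusted p up to 0.136, 0.0773 and 0.173). In SH-SY5Y it gave higher SLC38A2 (0.38, adjusted p = 2.18e-05), SLC7A5 (0.23) and SLC3A2 (0.23) and lower SLC38A1 (-0.43), 3 and 1 of 9 members beside 18.4% and 17.8% of all tested genes. These values share their controls with the changes above. For SLC7A11 in SK-N-BE(2) the difference between controls, -0.59, was as large as the fall with overexpression, -0.58, and far smaller than the rise with knockdown, 4.11. All 9 members also rose in that knockdown against the other control, where 22.5% of all tested genes did, and in SH-SY5Y 4 rose and 2 fell against it, beside 26.5% and 31.7%. In SH-SY5Y the calls that held against both controls were the rises of SLC38A2, SLC7A11, SLC3A2 and SLC6A9 and the falls of SLC1A4 and SLC7A1. The calls of SLC6A9 say less in both lines, since it passed the filter only through knockdown libraries.

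**Figure D4:**
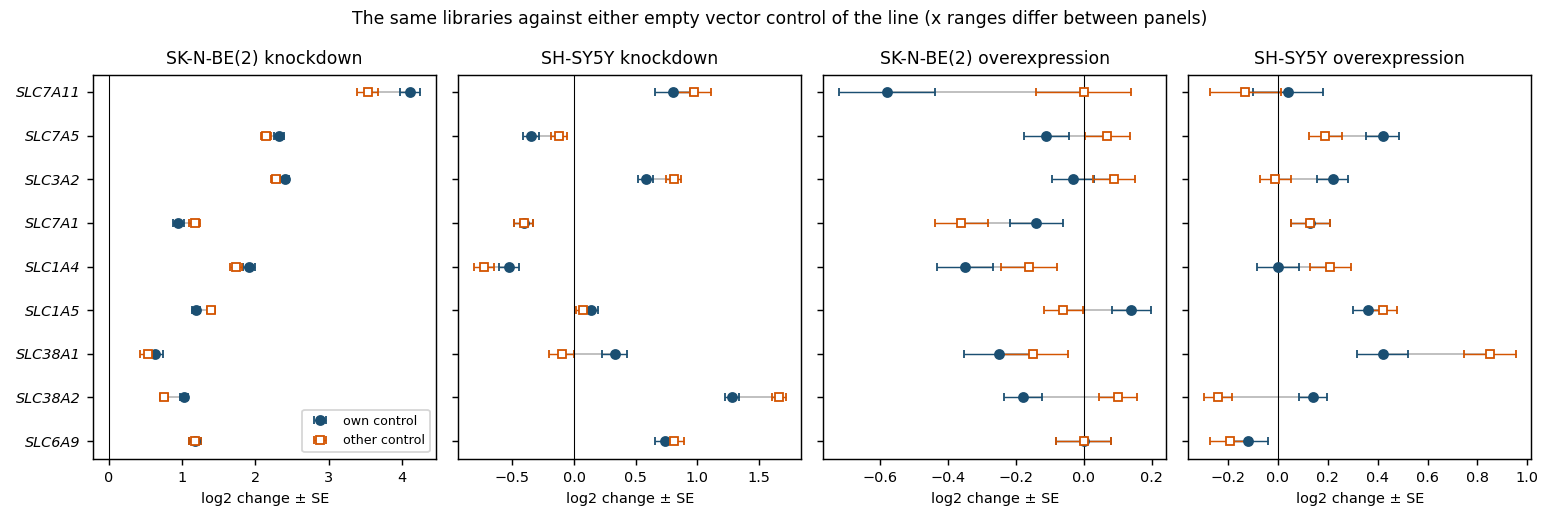
Log2 change ± SE (limma, n = 3 libraries a group) of 9 transporters with the same knockdown or overexpression libraries set against the empty vector of their own construct (blue circles) or the other empty vector of the line (orange squares), with a separate x range in each panel. In the SK-N-BE(2) knockdown both points lie right of 0 for all 9 genes, whereas in the SK-N-BE(2) overexpression SLC7A11 goes from -0.58 to 0.00.

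Other carriers of amino acids moved less uniformly. Of 42 further transporters of the plasma membrane and lysosome, 17 passed the filter, and in the SK-N-BE(2) knockdown 8 rose and 5 fell, with a median log2 change of 0.11. SLC38A11, a member of the same family as SLC38A2, held 0.261 FPKM in the controls and 3.27 in the knockdown (log2 change 1.76); it is 1 of the 8, but it reached 1 FPKM only in the 3 SK-N-BE(2) knockdown libraries, so it passed the filter only through the group where it is high and had to differ. The lysosomal cationic amino acid exporter SLC66A1 rose from 2.04 to 5.3 FPKM (log2 change 1.06) and SLC7A14 from 1.82 to 3.35 FPKM (log2 change 0.62), while SLC38A10 fell by 0.46 on the log2 scale. In the SH-SY5Y knockdown 4 of the 17 rose and 7 fell, with a median of -0.02. SLC7A14 fell there, from 5.24 to 1.04 FPKM (log2 change -1.61, adjusted p = 1.59e-12), as did SLC36A4 (-0.78), a proline and tryptophan transporter, and the glutamate and cysteine transporter SLC1A1 (-0.72), while the lysosomal glutamine exporter SLC38A7 rose (0.64). Of 10 tested mitochondrial amino acid carriers, 4 rose and 3 fell in SK-N-BE(2) and 4 rose and 4 fell in SH-SY5Y. The ornithine carrier SLC25A15 fell in both, by 0.81 and 0.33, and the serine carrier SFXN1 fell by 0.79 in SH-SY5Y.

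The enzymes, regulators and redox genes around these carriers differed between the lines as well. Of 27 tested enzymes of amino acid metabolism, 16 rose and 7 fell in the SK-N-BE(2) knockdown (median log2 change 0.35), and 3 rose and 15 fell in that of SH-SY5Y (median -0.32). The SK-N-BE(2) minus SH-SY5Y difference was called above 0 for 17 of the 27 and below 0 for 4, by adjusted p under 0.05. In SK-N-BE(2) the alanine transaminase GPT2 rose from 7.06 to 30.4 FPKM (log2 change 1.96), the serine synthesis genes PSAT1 and PSPH by 1.76 and 1.93 and the folate enzyme MTHFD2 by 1.55. In SH-SY5Y the glycine cleavage gene GLDC fell from 5.23 to 0.859 FPKM (log2 change -1.75), and CBS of the transsulfuration pathway, ODC1 of polyamine synthesis and ALDH18A1 of proline synthesis fell by 0.83, 0.80 and 0.38. Of 13 tested genes of glutathione synthesis and use, which draw on cystine, 9 rose and 1 fell in SK-N-BE(2), led by CHAC1 (log2 change 4.29), GCLM (2.44), TXNRD1 (1.49) and SRXN1 (1.97). In SH-SY5Y 3 of the 13 rose, among them GPX4 (0.28) and GPX1 (0.33), and 2 fell, GGCT (-0.82) and CHAC2 (-0.54). CHAC1, like CHAC2, degrades glutathione, so the list holds both makers and users. The SK-N-BE(2) minus SH-SY5Y difference was above 0 for 10 of the 13 and below 0 for none by the adjusted test in limma (10 and 0 with an unadjusted p under 0.05).

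Of 12 tested transcription factors and regulators known to act on these transporters, 10 rose and 2 fell in the SK-N-BE(2) knockdown. ATF3 rose from 0.599 to 44 FPKM (log2 change 4.81, adjusted p = 1.72e-19), DDIT3, which encodes CHOP, from 3.33 to 273 (5.99), TRIB3 from 1.69 to 29.6 (3.51) and NFE2L2 from 17.3 to 38.5 (1.11). ATF4 transcripts, which are regulated mainly in translation, went from 81.2 ± 4.18 to 211 ± 14.8 FPKM (SD, n = 3, log2 change 1.37, adjusted p = 2.03e-12), and MYCN from 1102 to 522 (log2 change -1.09). ATF4 and MYCN were chosen for mention after their values were seen. In SH-SY5Y 7 of the 12 rose and 4 fell. The NRF2 inhibitor KEAP1 (1.05), CEBPB (0.85) and NFE2L2 (0.42) were among those that rose. DDIT3 did not pass there, at 7.91 ± 1.25 and 7.41 ± 2.32 FPKM (SD, n = 3, log2 change -0.11, adjusted p = 0.527), and ATF4 rose from 30.7 to 43.7 (log2 change 0.50), both also named after their values were seen. Of 35 tested genes that pass amino acid levels to mTORC1, 10 rose and 10 fell in SK-N-BE(2), with the leucine sensor SESN2 at a log2 change of 3.47 and the Rag GTPase RRAGC at 0.79, and 14 rose and 8 fell in SH-SY5Y, with RRAGC at 0.67 and MIOS at -0.77. The percentages of all tested genes given with the members apply to these counts too, and no list was tested as a whole.

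With overexpression these lists moved less, and so did all tested genes. Of all tested genes, 12.9% rose and 16.8% fell in SK-N-BE(2), and 15.4% rose and 17.2% fell in SH-SY5Y. Of the 17 further transporters none rose and 6 fell in SK-N-BE(2) by limma (1 and 7 with an unadjusted p under 0.05), among them SLC36A4 (-0.32), and 3 rose and 5 fell in SH-SY5Y, where SLC1A1 changed by -0.65 and the light chain SLC7A6 by 0.53. Of the 27 enzymes 5 rose and 3 fell in SK-N-BE(2), with SHMT2 at 0.44, and 3 rose and 8 fell in SH-SY5Y, with GLDC at -0.61. Of the 12 regulators 3 rose and 1 fell in SK-N-BE(2), and 5 rose and 1, ATF3 (-0.98), fell in SH-SY5Y.

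The genes whose group means followed a member most closely over the 8 groups were found by Pearson's r of mean log2(FPKM + 1), a description in which all genes share the same libraries. For SLC7A11 these were SLC33A1 (r = 0.994), SLC3A2 (0.993), OSBP (0.991), DNAJC3 (0.991) and IL1R1 (0.99). Its heavy chain partner was thus second of all tested genes. For SLC7A5 they were SMNDC1 (0.993), MTHFD2 (0.992), SCN1A (0.989), MTO1 (0.988) and TCEA1 (0.988), and for SLC38A2, ATP2B1 (0.987), ZYX (0.975), PCDHAC1 (0.965), MB21D2 (0.962) and SERINC1 (0.959). Within the members, SLC38A2 and SLC38A1 had an r of 0.0711, whereas SLC1A4 and SLC1A5 had 0.912. Such an r over all groups does not give the direction of each change. Against their own controls, SLC38A2 and SLC38A1 both rose in both knockdowns, whereas SLC1A4 and SLC1A5 had opposite signs in that of SH-SY5Y (-0.53 and 0.14). MTHFD2 shared the opposite directions of SLC7A5, with log2 changes of 1.55 and -0.32 in the knockdowns. SMNDC1, SCN1A, MTO1 and TCEA1 did not pass in the SH-SY5Y knockdown (-0.04, -0.07, 0.05 and -0.11). Of the genes nearest SLC7A11, OSBP (0.03) and IL1R1 (0.09) did not pass there either. ZYX, which encodes an adhesion protein, shared the rises of SLC38A2 in both lines, with 1.56 and 1.71, whereas PCDHAC1 did not pass in SK-N-BE(2) (0.40).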

How the data were processed

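RNA sequencing of 24 libraries gave 1 table of 60564 genes. Per the labels' protocols, libraries were strand-specific. FastQC 0.11.2, STAR, StringTie 1.3.1c and the hg38 build are named in the submitters' processing notes. In the sources used here the annotation, settings and use of strand in counting are not given. The values deposited by the authors are FPKM, and depth is unknown. Groups were taken from the labels. Values were tested as log2(FPKM + 1) with limma 3.58.1 (intensity trend and robust moderation) in R 4.3.3, over genes that reached 1 FPKM in 3 or more libraries, with 1 mean for each of 8 groups and 16 residual degrees of freedom. P-values were adjusted by the Benjamini-Hochberg method over 15903 genes, with a threshold of 0.05. The comparisons were each construct against its own empty vector, the difference of that change between lines, the 2 empty vectors of each line, and the controls of the lines. Those of 1 line share libraries. Alternatives changed the pseudocount, filter, scaling, moderation, replicate block, control, groups fitted and libraries included. The lists of values of libraries in a group were never identical. The spread that the p-values rest on is that of the 3 libraries of a group, and part of it may be technical. The 10 members and the other gene lists were chosen with earlier results of these data known. Named list genes are the 4 with the smallest adjusted p in a list, except where the text says otherwise, and not every gene this rule names is reported here. Gene positions follow GENCODE v29 on hg38, and promoter sequences are from RefSeq (GRCh38.p14).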

Additional observations from a re-analysis of the deposited data

Results flagged for a closer look

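The knockdown changed 8 of the 9 tested transporters by different amounts in the lines, by the limma test of the SK-N-BE(2) change minus the SH-SY5Y change. The log2 difference was 3.31 for SLC7A11, 2.67 for SLC7A5, 2.44 for SLC1A4, 1.83 for SLC3A2, 1.36 for SLC7A1, 1.06 for SLC1A5 and 0.44 for SLC6A9. For SLC38A2 it was -0.25. The calls of SLC6A9 and SLC38A2 depend on the scale: the difference of SLC6A9 was 0.06 (adjusted p = 0.898) with a pseudocount of 0.1, and that of SLC38A2 -0.05 (adjusted p = 0.656) with a fixed sum per library. The size of the SLC7A11 difference and its first place depend on the scale too. Its change in the SH-SY5Y knockdown was 0.80 with a pseudocount of 1 and 1.86 with a pseudocount of 0.1.

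The same difference for overexpression was called below 0 for 7 transporters. It was -0.67 for SLC38A1, -0.62 for SLC7A11, -0.53 for SLC7A5, -0.35 for SLC1A4, -0.33 for SLC38A2, -0.25 for SLC3A2 and -0.22 for SLC1A5. The calls of SLC7A11, SLC1A4, SLC3A2 and SLC1A5 were lost when single libraries were left out. With the other empty vector control in both lines, SLC38A2 was 0.33, SLC7A11 0.14 and SLC3A2 0.10, above 0, and SLC7A5 was -0.12 and did not pass. In SK-N-BE(2) these 7 changes ran from -0.58 for SLC7A11 to 0.14 for SLC1A5, and in SH-SY5Y from 0.00 for SLC1A4 to 0.42 for SLC7A5 and SLC38A1.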

How the results depend on the processing

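The 9 rises in the SK-N-BE(2) knockdown passed the test under all alternatives in which the gene was tested. SLC6A9, 1 of the 9, passed the main filter only through knockdown libraries and so had to differ. Of 81 values, the number that kept direction and side of the threshold was 76 with a pseudocount of 0.1, 74 with no filter (43264 genes), 70 with FPKM scaled to a fixed sum, 73 with median of ratios scaling, 78 without trend and robust moderation, and 78 with the replicate block. It was 62 of 63 with a mean of at least 5 FPKM, 34 of 54 with the other empty vector control (its use in the differences between lines was chosen after seeing the data), 48 of 54 with only the 2 groups compared and 595 of 648 when 1 library was left out. To see whether replicate numbers pair the libraries, same-numbered libraries of compared groups were correlated after removal of the group means. Of 18 correlations, from -0.076 to 0.37, 2 were over 0.1. These 2 lay in the SK-N-BE(2) overexpression comparison, at 0.141 for replicate 1 and 0.37 for replicate 2, with -0.076 for replicate 3. Libraries with different numbers were not correlated, so pairing in that comparison is not settled. With the block, SLC1A5 in the SH-SY5Y knockdown was lost (adjusted p = 0.0592), SLC38A2 in the SH-SY5Y overexpression was gained (0.0385) and SLC7A5 between the SK-N-BE(2) controls was lost (0.0575). The cause of these and the following changes was not tested.

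The following counts of called members differed from the main count by over 1.5 times. With no filter, SLC7A3 was tested and counted as well. In the SK-N-BE(2) overexpression, 1 was higher with median of ratios, and 1 was lower against the other control and 0 with only those groups. In the SH-SY5Y overexpression, 1 was lower with a pseudocount of 0.1 (SLC6A9), with no filter (SLC7A3) and against the other control (SLC38A2). Between lines, 0 were lower for knockdown with a fixed sum, and for overexpression 1 was higher and 3 were lower with no filter, and 1 higher and 4 lower with the other control. Between the SK-N-BE(2) controls, 1 was higher with no filter, and 0 were higher and 5 lower with a fixed sum. With only those groups, 2 were lower between the SH-SY5Y controls, and with no filter 2 were lower between the controls of the lines. Leaving out 1 library gave 2 to 5 lower and 0 to 1 higher members in the SK-N-BE(2) overexpression (5 without overexpression replicate 1, 1 higher without control replicate 2), 4 to 7 lower members for overexpression between lines (4 without SH-SY5Y overexpression control replicate 1) and 0 to 1 higher members between the SK-N-BE(2) controls.

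Some values changed sign. Against the other control these were, among values called against the own control or against the other one, SLC38A1 in the SH-SY5Y knockdown (0.33 to -0.10), SLC7A11 (-0.58 to 0.00) and SLC38A2 (-0.18 to 0.10) in the SK-N-BE(2) overexpression, SLC3A2 (0.22 to -0.01) and SLC38A2 (0.14 to -0.24) in that of SH-SY5Y, and SLC7A11 (-0.62 to 0.14), SLC38A2 (-0.33 to 0.33) and SLC3A2 (-0.25 to 0.10) in the overexpression difference between lines. Among values called against neither, they were SLC7A5 (0.07), SLC3A2 (0.09) and SLC1A5 (-0.06) in the SK-N-BE(2) overexpression and SLC7A11 (-0.13) in that of SH-SY5Y. Other changes of sign were all of values near 0. SLC6A9 in the SK-N-BE(2) overexpression was -0.01 with a pseudocount of 0.1, -0.02 with a fixed sum and -0.09 to 0.09 with 1 library left out. SLC3A2 there was 0.00 with median of ratios and -0.07 to 0.01 with 1 library left out. SLC6A9 between the SK-N-BE(2) controls was -0.04 with a fixed sum and -0.04 to 0.04 with 1 library left out, SLC1A4 between the controls of the lines was 0.04 with median of ratios, SLC7A1 between the SH-SY5Y controls was -0.03 to 0.01 and SLC1A4 in the SH-SY5Y overexpression -0.05 to 0.04 with 1 library left out.

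A fixed sum moved the median of all genes in the knockdown difference between lines from 0.01 to 0.16. It moved the share of higher genes among those called from 49.2% to 60.8% in the SK-N-BE(2) knockdown, from 47% to 35.6% in that of SH-SY5Y, from 43.4% to 32.2% in the SK-N-BE(2) overexpression (53.9% with median of ratios), from 52.8% to 69.6% and from 49.8% to 38.1% in the knockdown and overexpression differences between lines, and from 45.1% to 24.9% between the SK-N-BE(2) controls. Without counts, the precision of low values such as those of SLC7A3, SLC6A9 and, in SH-SY5Y, SLC7A11 cannot be given.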
